A study of Homo sapiens with 30 samples.

Results

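Chromosome 19 held 2816 of the 70565 regions in 8 peak lists of CTCF, MBD3, TET1 and TET2 from HEK293T cells with and without auxin. It is the human chromosome with the most genes per length. The regions were selected on position alone, with rows of 1 list that shared 1 bp joined into 1 region. The chromosome and its segments were chosen by the measured density of the same lists, so their densities and shares are a description and carry no test. The lists of cells with IAA held 5 CTCF, 2 MBD3, 10 TET1 and 104 TET2 regions on chromosome 19. The lists of cells without IAA held 1738 CTCF, 173 MBD3, 731 TET1 and 53 TET2 regions there.

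HEK293T is an established human embryonic kidney line, and chromatin immunoprecipitation with sequencing maps where a protein sits on DNA. All cells had an edited CTCF gene and were transfected with 2 plasmids, which encode ScFv-miniIAA7-mEGFP and the auxin receptor AtAFB2 joined to mCherry. The cells with IAA received indole-3-acetic acid, a plant auxin, at 0.5 mM for 72 h, and the cells without IAA received medium alone per the protocol, although a treatment label names DMSO. Each of the 4 antibodies and the input was sequenced in 3 samples per condition, which gives 10 groups and 30 samples. The labels do not say whether the edited cells were a single clone, and transfection reaches only some of the cells in a dish.

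CTCF is a zinc-finger protein that binds a long DNA motif, stops cohesin as it extrudes loops and so marks the borders of many chromatin domains. MBD3 is a subunit of NuRD, a complex that slides nucleosomes and removes acetyl groups from histones. TET1 and TET2 are dioxygenases that oxidise 5-methylcytosine, a step towards its removal. Chromosome 19 is known for its density of genes and for large clusters of KRAB zinc-finger genes, whose repeated units lie under broad repressive chromatin in many cell types. The proximal part of its short arm, ahead of the centromere, holds one such cluster.

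The authors called peaks on the 3 samples of a group together, so each list gives 1 value per region and no spread between samples. Intervals on shares (Wilson) and on densities (exact Poisson) are 95% intervals that cover counting error over regions only, and regions are positions, not replicates. Read depth is unknown, and it sets how many weak peaks a caller can report. Fold enrichment and −log10 q are the authors' values, used here to rank or filter regions within 1 list. Densities refer to the length up to the last region in any list, which is 59.1 Mb for chromosome 19, and are set against the other 22 of chromosomes 1 to 22 and X. In the main values, sequence missing from the build was not taken out of any length, and the order of chromosomes by density rests on these lengths. Shares are set against all regions of the same list outside chromosome 19.

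CTCF regions were denser on chromosome 19 than on any other of the 23 chromosomes compared. In cells without IAA there were 29.4 CTCF regions per Mb on chromosome 19 (28.03 to 30.81), against 13.6 per Mb on the other 22 chromosomes (13.50 to 13.76), a ratio of 2.16. Chromosome 17 followed with 24.4 per Mb, and chromosome 21 was lowest with 8.58 per Mb. Their strength was close to that elsewhere, with a median fold of 13.95 on chromosome 19 (quartiles 6.93 and 24.6), against 13.6 in the rest of the list (quartiles 7.47 and 24.2).

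Set against genes in place of length, chromosome 19 moved from the highest place to the lowest. RefSeq (GRCh38.p14) lists 1451 protein-coding genes on chromosome 19, second to the 2062 of chromosome 1. Up to the end of the last gene this is 24.8 genes per Mb, the most of the 23 chromosomes, and chromosome 17 came next with 14.1. There were 1.20 CTCF regions per protein-coding gene on chromosome 19, the lowest of the 23 chromosomes. Chromosome 11 was next lowest with 1.64 and chromosome 13 was highest with 3.34. Of the 517 genes on these chromosomes whose symbol is ZNF and a number, a naming scheme for zinc-finger genes, 250 (48.4%) lay on chromosome 19, and chromosome 7 followed with 35. These genes made up 17.2% of the protein-coding genes of chromosome 19. Gene counts come from another build than the regions and were compared by chromosome only.

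**Figure D1:**
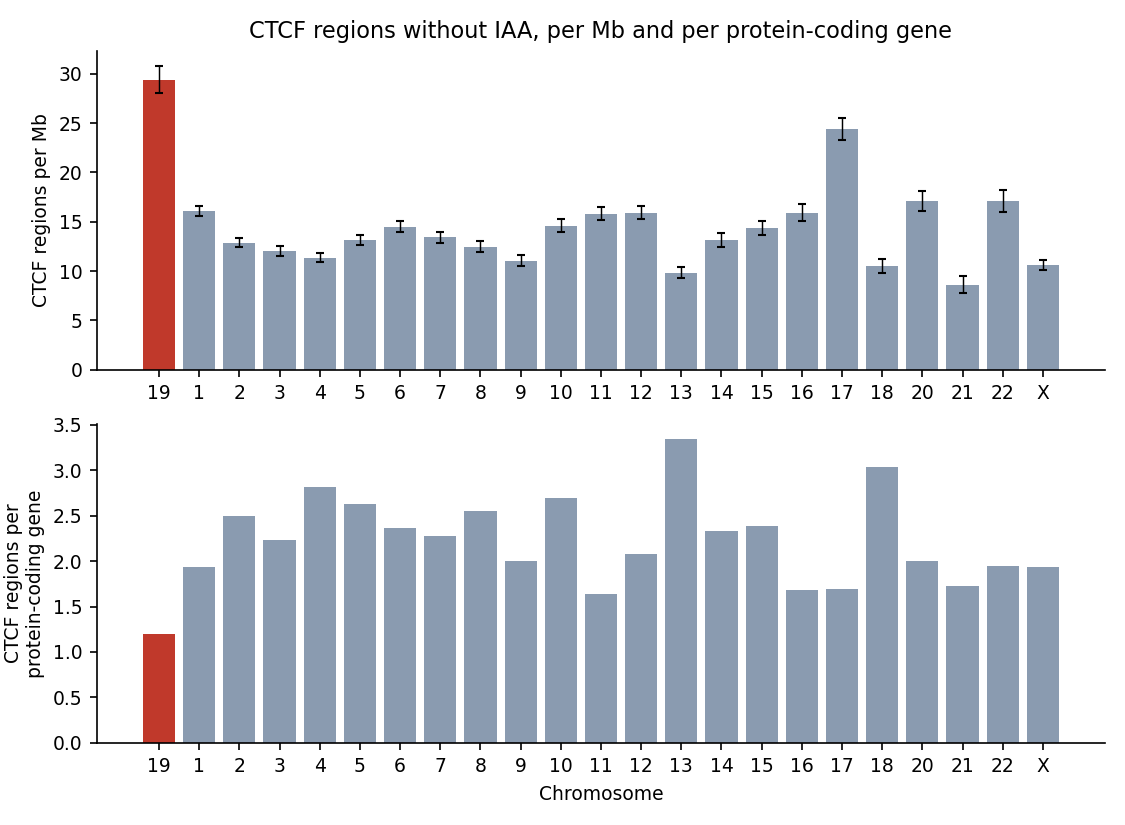
CTCF regions without IAA by chromosome, with chromosome 19 in red on the left: regions per Mb with 95% Poisson intervals (top) and regions per RefSeq protein-coding gene (bottom). Chromosome 19 is highest per Mb at 29.4 and lowest per gene at 1.20.

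The higher density held along most of the chromosome. The 59 full 1-Mb bins of chromosome 19 held a median of 30 CTCF regions, against 13 in the 2967 bins of the other chromosomes. At least 40 CTCF regions lay in 19 of the 59 bins (32.2%), against 44 of the 2967 (1.48%). The fullest bin, from 50 to 51 Mb, held 70 CTCF regions, while the fullest bin elsewhere held 67. The bins from 25 to 26 Mb and from 26 to 27 Mb held 0. The closest other CTCF region was a median of 8123 bp away on chromosome 19, against 15237 bp elsewhere. A neighbour lay within 10 kb for 56.9% of CTCF regions on chromosome 19 and for 39.0% elsewhere, a difference of 17.9 percentage points (Newcombe 95% interval 15.5 to 20.2). The regions were also a little broader, with a median width of 301 bp on chromosome 19 and 275 bp elsewhere, and 4.09% of regions on chromosome 19 joined more than 1 row, against 2.01% elsewhere.

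TET1 regions were also densest on chromosome 19. Those of cells without IAA numbered 12.4 per Mb on chromosome 19 (11.5 to 13.3), against 5.17 per Mb on the other chromosomes, a ratio of 2.39 and the highest of the 23 chromosomes. Of the TET1 regions of chromosome 19, 707 of 731 (96.7%) shared at least 1 bp with a CTCF region, against 90.8% elsewhere and 91.1% of the whole TET1 list. The summits of these TET1 regions lay a median of 7 bp from a CTCF summit on chromosome 19 and 7 bp elsewhere. The 24 TET1 regions away from CTCF came to 0.406 per Mb on chromosome 19 (0.260 to 0.604), against 0.467 per Mb elsewhere. The higher TET1 density of chromosome 19 thus lay in regions that shared a base with CTCF.

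A CTCF region carried TET1 more often on chromosome 19. The share was 701 of 1738 (40.3%, interval 38.1 to 42.7), against 34.1% elsewhere and 34.4% of the whole CTCF list. The difference was 6.23 percentage points (3.91 to 8.60). Chromosomes 17 (43.1%) and 10 (41.8%) had higher shares still, so that chromosome 19 ranked 3 of 23. CTCF regions with TET1 were stronger in CTCF than those without it, at a median fold of 26.1 against 8.69 on chromosome 19.

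The higher TET1 share was present at every strength of CTCF. When the whole CTCF list was cut into 5 parts of equal size by fold, 11.4% of the chromosome 19 regions had TET1 in the weakest part (fold up to 6.56), against 6.12% elsewhere. The shares were 7.67% against 4.53% in the next part and 22.2% against 15.7% in the middle part. They were 62.3% against 53.5% in the fourth part and 94.6% against 91.0% in the strongest part (fold above 27.2). The difference ranged from 3.14 points (0.634 to 6.65) in the second part to 8.80 points (3.67 to 13.7) in the fourth. The parts held 18.0% to 22.2% of the CTCF regions of chromosome 19 each, so that its regions were spread over the strengths much as elsewhere.

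**Figure D2:**
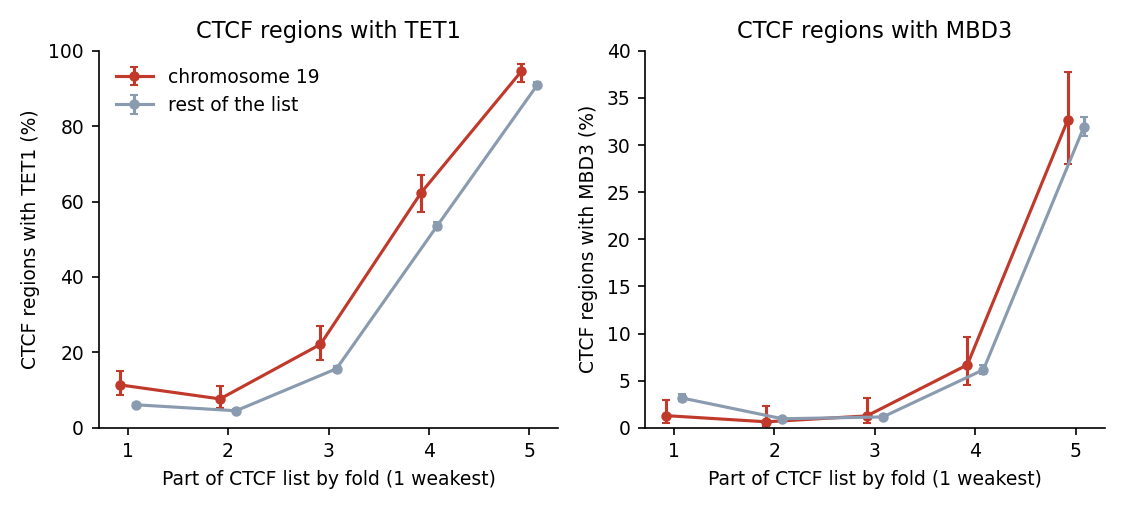
Share of CTCF regions that carried TET1 (left) or MBD3 (right) in cells without IAA, in 5 parts of the CTCF list from weakest to strongest by fold, on chromosome 19 (red) and in the rest of the list (grey), with Wilson 95% intervals. TET1 shares on chromosome 19 lie above the rest in all 5 parts, from 11.4% against 6.12% in the weakest to 94.6% against 91.0% in the strongest, while MBD3 shares in the strongest part are 32.7% and 31.9%.

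MBD3 was called at CTCF regions of chromosome 19 about as often as elsewhere. The share was 150 of 1738 (8.63%, 7.40 to 10.0), against 8.67% elsewhere and 8.67% of the whole list, with a difference of -0.04 points (-1.303 to 1.396). By strength it was 32.7% against 31.9% in the strongest part and 6.68% against 6.16% in the fourth. In the weakest part it was lower on chromosome 19, with 5 of 386 regions (1.3%) against 3.17% elsewhere, a difference of -1.87 points (-2.71 to -0.13). Of the 150 CTCF regions with MBD3, 141 also carried TET1 (94.0%), against 90.5% elsewhere. CTCF regions with TET1 and no MBD3 made up 32.2% of the chromosome 19 regions and 26.2% of those elsewhere. Those with TET1 and MBD3 made up 8.11% and 7.85%. The 9 regions with MBD3 and no TET1 made up 0.518% on chromosome 19, against 0.821% elsewhere. None of the other 3 proteins was called at 58.3% of the chromosome 19 regions, against 64.7% elsewhere.

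TET2 was called at few CTCF regions. In cells without IAA 25 of the 1738 carried it (1.44%, 0.976 to 2.12), against 1.09% elsewhere and 1.1% of the whole list, with an interval of the difference of -0.13 to 1.03 points. Read from the other side, 25 of 53 TET2 regions of chromosome 19 lay at CTCF (47.2%, 34.4 to 60.3), against 35.4% elsewhere and 35.8% of the whole TET2 list, with an interval of the difference of -1.24 to 25.2 points. TET2 regions numbered 0.897 per Mb on chromosome 19, against 0.417 elsewhere, second to 0.924 on chromosome 17. Their summits lay further from the CTCF summit than those of the other proteins. The median distance was 90 bp on chromosome 19 and 75 bp elsewhere, while for MBD3 it was 12 bp in both.

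By fold, the strongest CTCF region of the chromosome was also its strongest MBD3 and TET1 region. It ran from 46580789 to 46581233 on chromosome 19 (hg19), with a CTCF fold of 72.0, an MBD3 fold of 12.7 and a TET1 fold of 22.2, and carried no TET2 region. It ranked 94 of 42925 CTCF regions, 18 of 6608 MBD3 regions and 63 of 16246 TET1 regions in the whole lists by fold. By −log10 q it ranked 29 of 1738 CTCF, 5 of 173 MBD3 and 16 of 731 TET1 regions of the chromosome. The next CTCF regions by fold ran from 42612678 to 42613025 (69.7) and from 49895165 to 49895493 (65.0), and both carried MBD3 and TET1. All of MBD3, TET1 and TET2 were carried by 4 of the 1738 CTCF regions of the chromosome (0.230%, 0.0895 to 0.590), against 0.318% elsewhere. The strongest of these ran from 48763258 to 48763724, with folds of 60.6 for CTCF, 5.35 for MBD3, 21.9 for TET1 and 4.84 for TET2. The next 2 ran from 45303692 to 45304150, with a CTCF fold of 59.7, and from 42363634 to 42364357, with a CTCF fold of 13.6. The fourth lay at 27731968 to 27732306 and is described with its segment.

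MBD3 regions away from CTCF were few on chromosome 19. In cells without IAA 150 of its 173 MBD3 regions lay at CTCF (86.7%, 80.8 to 91.0), against 55.6% elsewhere and 56.4% of the whole MBD3 list. The difference was 31.1 points (25.1 to 35.6), and the share was the highest of the 23 chromosomes. Chromosome 16 followed with 85.6%, and chromosome 13 was lowest with 35.7%. The MBD3 regions at CTCF came to 2.54 per Mb on chromosome 19 (2.15 to 2.98), against 1.20 elsewhere, a ratio of 2.12 that lies close to the ratio of 2.16 for CTCF itself. The 23 away from CTCF came to 0.389 per Mb (0.247 to 0.584), against 0.952 elsewhere (0.918 to 0.988), a ratio of 0.409.

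The gap in the share at CTCF narrowed at a higher −log10 q and with a stricter overlap, but not under every alternative. At a −log10 q of at least 5 in every list the share was 93.1% of 116 on chromosome 19, against 73.0% elsewhere. At 10 it was 90.9% of 33 (76.4 to 96.9), against 83.5% elsewhere, which lies within that interval. With an overlap of 50% of both regions it was 31.8% on chromosome 19 and 24.7% elsewhere. The shortage away from CTCF was not the deepest. Chromosome 19 ranked 6 from the bottom for MBD3 regions away from CTCF per Mb, and chromosomes 16 (0.199) and 22 (0.254) had the lowest values. Chromosome 10 had the highest with 2.11, and the median of the other chromosomes was 0.753. The high share of MBD3 regions at CTCF on chromosome 19 thus combined a density at CTCF that was second to chromosome 17 (2.80 per Mb) with a density away from CTCF among the lowest 6.

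**Figure D3:**
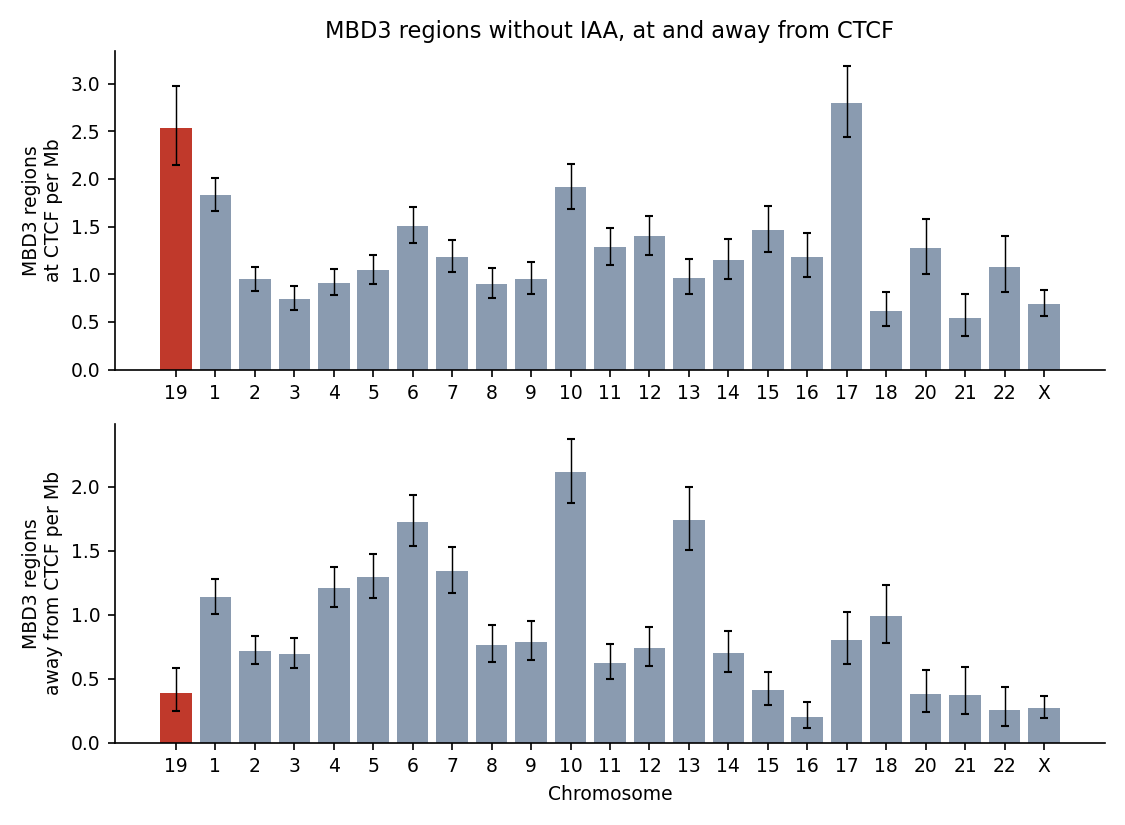
MBD3 regions without IAA per Mb by chromosome, at CTCF (top) and away from CTCF (bottom), with 95% Poisson intervals and chromosome 19 in red on the left. Chromosome 19 is second highest at CTCF with 2.54 per Mb and 6 from the lowest away from it with 0.389 per Mb.

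The MBD3 regions away from CTCF were weaker and mostly lacked TET1. On chromosome 19 the median MBD3 fold was 5.71 at CTCF and 4.25 away from it, while elsewhere it was 5.93 at CTCF and 5.00 away. TET1 was called at 94.0% of the MBD3 regions at CTCF on chromosome 19, against 90.4% elsewhere. It was called at 5 of the 23 away from CTCF (21.7%, 9.66 to 41.9), against 13.9% elsewhere. The 23 include 3 regions just before 28 Mb with MBD3 folds of 1.25 to 1.84, and those that began at 27734297 and 27738446 carried TET1. Over both classes 84.4% of the MBD3 regions of chromosome 19 carried TET1, against 56.4% elsewhere and 57.1% of the whole list. The strongest MBD3 region away from CTCF ran from 42784522 to 42784728, with a fold of 8.27, and ranked 12 of the 173. The next 4 were from 42972524 to 42972862 (6.25, with TET2 at 5.46), 46636726 to 46636921 (6.17), 41426828 to 41427389 (5.92, with TET1 at 4.21) and 2529648 to 2529810 (5.91). The first 4 of these 5 lay between 41 and 47 Mb.

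Along the chromosome, the regions fell into 2 dense stretches on either side of a nearly empty one. The first 20 Mb, the gene-dense end of the short arm, held 723 CTCF regions or 36.2 per Mb (33.6 to 38.9). The next 4.5 Mb, a stretch known for zinc-finger genes and marked off with its low density in these lists in view, held 13 or 2.89 per Mb (1.54 to 4.94). The following 3.5 Mb, up to 28 Mb, hold the centromere and sequence missing from the build, and contained 1 CTCF region. The last 31.1 Mb held 1001 or 32.2 per Mb (30.2 to 34.2). The names of the segments come from what is known of the chromosome and were not checked against an hg19 annotation here. The step at the first border was steep, with 30 CTCF regions between 19 and 20 Mb and 3 between 20 and 21 Mb. At the last border there was 1 between 27 and 28 Mb and 10 between 28 and 29 Mb.

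**Figure D4:**
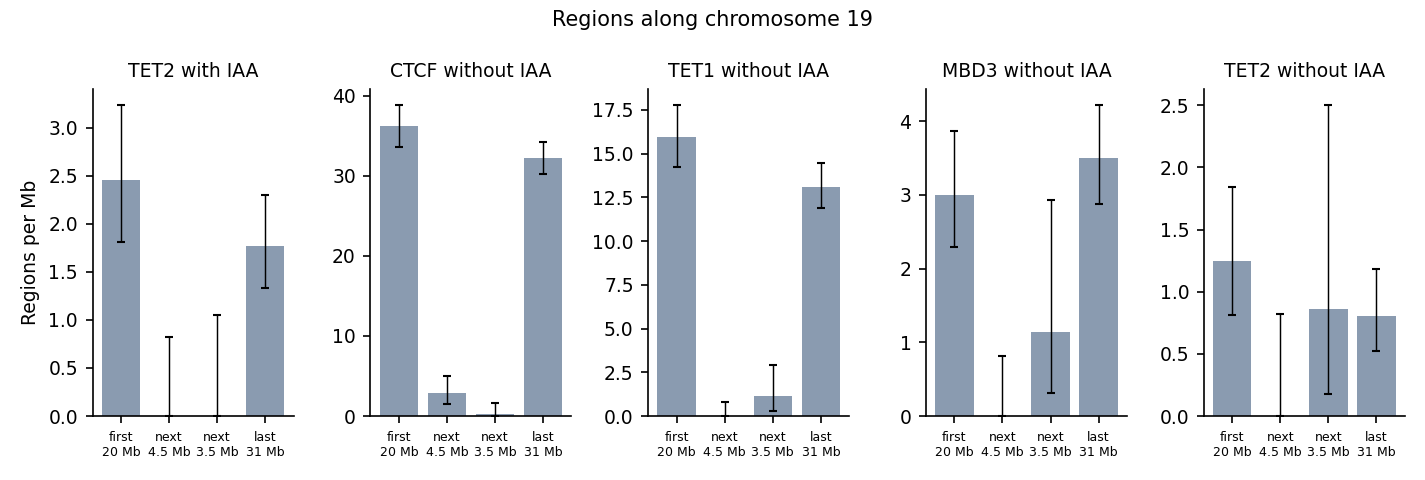
Regions per Mb in 4 successive segments of chromosome 19 for TET2 with IAA and for CTCF, TET1, MBD3 and TET2 without IAA, with exact Poisson 95% intervals and a scale of its own for each panel. CTCF reaches 36.2 and 32.2 per Mb in the outer segments and 2.89 per Mb in the second, where the other panels show 0.

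Both outer segments were dense in CTCF. CTCF density in the first 20 Mb was 1.12 times that of the last 31.1 Mb (interval 1.02 to 1.24), with median folds of 14.2 and 13.95. TET1 regions numbered 319 in the first segment, or 15.95 per Mb (14.25 to 17.8), and 408 in the last, or 13.1 per Mb (11.9 to 14.45). The share of CTCF regions with TET1 was 42.6% in the first segment and 39.2% in the last, a difference of 3.44 points (-1.25 to 8.14). MBD3 regions numbered 60, or 3.00 per Mb (2.29 to 3.86), and 109, or 3.5 per Mb (2.88 to 4.23). The share with MBD3 was 7.19% in the first segment and 9.69% in the last, a difference of -2.50 points (-5.09 to 0.21). The 8 and 12 MBD3 regions away from CTCF came to 0.4 and 0.386 per Mb. TET2 regions with IAA numbered 49 in the first, or 2.45 per Mb (1.81 to 3.24), and 55 in the last, or 1.77 per Mb (1.33 to 2.301). TET2 regions without IAA numbered 25 in each, or 1.25 per Mb (0.809 to 1.84) in the first and 0.803 per Mb (0.520 to 1.19) in the last. Of these, 10 lay at CTCF in the first segment (40%, 23.4 to 59.3) and 14 in the last (56%, 37.1 to 73.3). The strongest CTCF region of the first segment ran from 14459275 to 14459652, with folds of 61.2 for CTCF, 7.54 for MBD3 and 15.1 for TET1.

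The 13 CTCF regions of the second segment stood alone. No MBD3, TET1 or TET2 region was called in this stretch in either condition, and no CTCF region with IAA. With 0 of 13 regions, a share of up to 23.1% is allowed for each protein. These 13 regions had a median fold of 9.06 (3.25 to 27.2), and 11 of them fell in the 3 weaker parts of the CTCF list, where TET1 was called at 7.79% to 22.4% of the other regions of chromosome 19. The remaining pair fell in the stronger parts, where TET1 was called at 62.5% and 94.8% of the other regions. The strongest ran from 21385731 to 21386003, with a fold of 27.2, and ranked 348 of the 1738 CTCF regions of the chromosome. The next, chosen after its value was seen, ran from 20070080 to 20070344, with a fold of 19.6. The segment also held 3 of the 5 longest stretches without a CTCF region: 1277 kb from 20108806 to 21385731, 656 kb from 22073105 to 22728655 and 533 kb from 23467030 to 24000432.

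The longest stretch without a CTCF region ran for 3725 kb from 24006990 to 27731968 and covered most of the third segment. The CTCF region at its far end, from 27731968 to 27732306, was unlike the others. Its fold of 1.75 was the lowest of the 1738, yet its −log10 q of 158 ranked 223 of them. MBD3, TET1 and TET2 were all called there without IAA, with folds of 2.12, 2.02 and 2.1. Its MBD3 region had the highest −log10 q of the whole MBD3 list (249), its TET1 region ranked 2 of 16246 (290) and its TET2 region ranked 3 of 1326 (307). Between it and position 27738617 lay the remaining 3 MBD3, 3 TET1 and 2 TET2 regions of the third segment, all with folds between 1.25 and 2.19. These were chosen after their values were seen.

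With IAA the CTCF list of chromosome 19 was almost empty. It held 5 regions, against 1738 without IAA, a ratio of 0.00288, while the rest of the list held 58 with IAA, against 41187 without, a ratio of 0.00141. A region counts as kept when it overlaps a region that the same antibody gave with IAA, and 4 of the 1738 were kept (0.230%, 0.0895 to 0.590), against 0.121% elsewhere and 0.126% of the whole list. CTCF was the protein targeted for degradation, so a short list is what the labels of the conditions call for. The MBD3 and TET1 lists with IAA were also short, and read depth is unknown. The count is therefore no check specific to CTCF, and its cause was not tested.

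Of the 4 kept regions, 3 had a CTCF fold without IAA above the median of the chromosome (13.95). The first ran from 17456961 to 17457398, with a fold of 6.12 with IAA and 30.9 without. The second ran from 36207670 to 36208628 (5.57 with IAA and 25.5 without) and the third from 46581868 to 46582235 (4.94 with IAA and 24.4 without). These ranked 245, 395 and 449 of the 1738 by fold without IAA, and 165, 166 and 260 by −log10 q. The first lay in the strongest of the 5 parts of the CTCF list (fold above 27.2) and the others in the fourth. Folds of different lists have no common scale. Their −log10 q with IAA lay between 2.93 and 3.61, against 147 to 176 without. The third lay 634 bp past the strongest CTCF region of the chromosome, which was no longer called. The summits of the 3 regions moved by 11, 179 and 97 bp between the conditions. The fourth kept region was that at 27731968, with a fold of 2.33 and a −log10 q of 229 with IAA, against 1.75 and 158 without. It was the only 1 of the 4 that remained when a −log10 q of at least 5 was asked in every list.

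**Figure D5:**
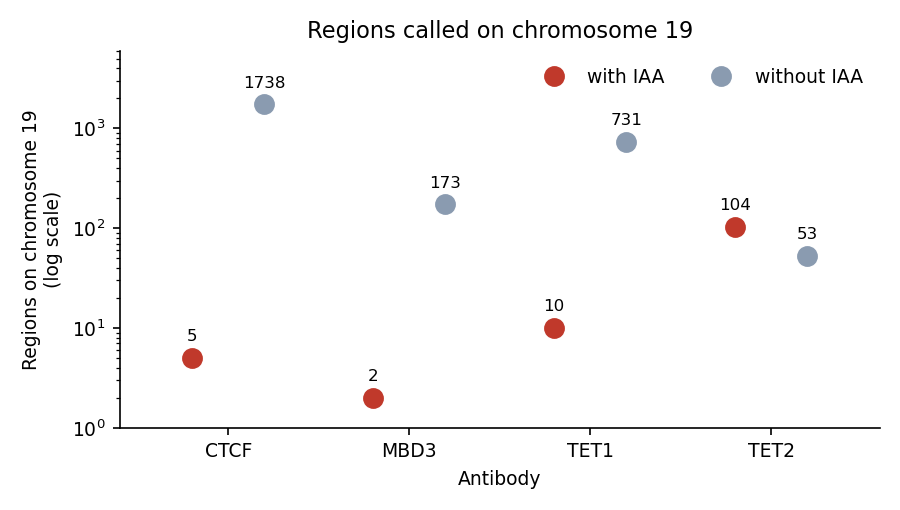
Number of regions called on chromosome 19 for each antibody on a log scale, with IAA (red) and without IAA (grey), 1 pooled list per point. CTCF, MBD3 and TET1 have 5, 2 and 10 regions with IAA, against 1738, 173 and 731 without, and TET2 has 104 with IAA, against 53 without.

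MBD3 and TET1 lists were short too. The ratio of regions with IAA to regions without was 0.0116 for MBD3 and 0.0137 for TET1, against 0.00288 for CTCF. In the rest of the lists it was 0.00746 for MBD3 and 0.0203 for TET1. MBD3 held 2 regions with IAA, against 173 without, and kept 1 of the 173 (0.578%), against 0.171% elsewhere and 0.182% of the whole list. The kept region was that at 27731965 to 27732321, with folds of 2.17 with IAA and 2.12 without. TET1 held 10 regions with IAA, against 731 without, and kept 2 of the 731 (0.274%), against 0.219% elsewhere and 0.222% of the whole list. The kept TET1 regions were the region at 27731968 to 27732315 (2.16 with IAA and 2.02 without) and a region from 51672649 to 51672873 (5.61 with IAA and 7.48 without). The second lay at a CTCF region with a fold of 40.6 without IAA that was not called with IAA. All the kept MBD3 and TET1 regions lay at CTCF, so that none of the 23 MBD3 and 24 TET1 regions away from CTCF was kept, which allows shares of up to 13.0% and 12.5%.

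The TET2 list was longer with IAA. It held 104 regions on chromosome 19 with IAA, against 53 without, a ratio of 1.962, while the rest of the list held 2918 with IAA, against 1273 without, a ratio of 2.29. The regions with IAA came to 1.76 per Mb on chromosome 19 (1.44 to 2.13), against 0.939 elsewhere, second to 2.05 on chromosome 16. The greater length lay mostly in regions of low −log10 q. At a −log10 q of at least 5 there were 18 regions on chromosome 19 with IAA, against 15 without. At 10 the order turned, with 5 with IAA, against 7 without, and the 5 came to 0.0846 per Mb, against 0.0904 elsewhere. None of the 53 regions without IAA was kept, which allows a share of up to 5.66%, against 0.471% elsewhere and 0.452% of the whole list. Few regions with IAA lay at former CTCF sites, on chromosome 19 as elsewhere. A CTCF region of the list without IAA was overlapped by 3 of the 104 (2.88%, 0.986 to 8.14), against 1.10% elsewhere and 1.16% of the whole list. The interval of the difference was -0.16 to 7.05 points. The median fold of the TET2 regions with IAA was 4.59 on chromosome 19 and 4.81 elsewhere, and that of the regions without IAA was 4.34 and 4.63.

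The strongest TET2 regions with IAA ran from 11575765 to 11576204 (fold 9.43), 30925682 to 30926480 (9.08) and 49172199 to 49173244 (8.86), and none of them lay at a region of another list. The strongest without IAA ran from 4769592 to 4769790 (8.85, with TET1 at 4.40), 2151724 to 2151973 (8.59) and 7616166 to 7616441 (8.29, at a CTCF region of 8.93). The 3 TET2 regions with IAA at former CTCF sites, named after their values were seen, were weak within their list. They began at 10527493, 37064079 and 56826068, with folds of 4.20, 3.97 and 4.26, at CTCF regions that had folds of 22.1, 7.20 and 8.26 without IAA.

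Of the 10 TET1 regions with IAA, 6 shared a base with a TET2 region with IAA. The matching share of the TET1 list with IAA outside chromosome 19 is not given here, so this count is not set apart from the rest. A single place on the chromosome was called with all 4 antibodies in cells with IAA and with none in cells without IAA. There the TET2 region ran from 55625904 to 55626833, and the folds were 1.28 for CTCF, 1.26 for MBD3, 1.40 for TET1 and 1.94 for TET2. A neighbouring TET2 region from 55627293 to 55628267 had a fold of 2.93 and a −log10 q of 569, the second highest of the 3022 in the TET2 list, with a TET1 fold of 1.50. At the first of these places the −log10 q was 3.63 for CTCF, 7.44 for MBD3, 22.8 for TET1 and 53.8 for TET2.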

How the data were processed

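The deposited data are 8 peak lists, 1 for each of 4 antibodies and 2 conditions, each called by the authors on 3 pooled samples, so that there is no value per sample. Per the submitters' processing notes the tools were FastQC 0.11.7, Bowtie2 2.3.4, SAMtools 1.9, MACS2 2.1.2 and bedtools 2.25.0 with build hg19, and which control the caller used is not given there. The deposited values are the fold enrichment of each peak, a ratio, the −log10 of its q-value, and the summit's offset. The highest q was 0.05, per the files.

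Samples were grouped by title. Rows of 1 list sharing 1 bp were joined, keeping the highest values and the summit of the most significant row. A region was placed in a segment or bin by its midpoint, and at CTCF when it overlapped a CTCF region from the list without IAA by 1 bp. Regions named in the text were the 3 strongest by fold in each class of loss or gain, the strongest CTCF region of each segment, the 3 strongest with all 4 antibodies and the 5 strongest MBD3 regions away from CTCF. The others are said to have been chosen after their values were seen, or are all the members of a class of at most 10. The members and lists were chosen with earlier results of these data known.

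No test was run. Alternatives were a 50% overlap, summits within 200 bp, a −log10 q of at least 5 or 10, a fold of at least 5, single rows, leaving out regions called with all 4 antibodies, a shorter chromosome length and other segment borders. Joining, overlap and intervals were checked on simulated data. Python 3.11.15, numpy 2.4.6, pandas 2.3.3, scipy 1.17.1 and matplotlib 3.10.9 were used. Gene counts come from RefSeq (GRCh38.p14), so no gene name or sequence was given to a region of build hg19.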

Additional observations from a re-analysis of the deposited data

How the results depend on the processing

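Of 74 alternative values, 44 stayed within the main value's interval or, for a count, within 1.5 times of it, and 30 did not. CTCF regions per Mb were 27.4 and 24.2 at a −log10 q of at least 5 and 10, 25.8 at a fold of at least 5 and 31.3 without the 3.5 Mb before 28 Mb, and stayed above the other chromosomes in all 6 alternatives. The shorter length was used for chromosome 19 only. With a 50% overlap the share of CTCF regions was 29.9% for TET1, 3.17% for MBD3 and 0.575% for TET2, and the share of MBD3 regions at CTCF was 31.8% (24.7% elsewhere). The MBD3 share was 6.66% and 2.1% at a −log10 q of at least 5 and 10 and 6.23% at a fold of at least 5. The TET2 share was 0.185%, 0.140% and 0.197% in the same order. The share of MBD3 regions at CTCF was 93.1% (73.0% elsewhere) and 90.9% (83.5% elsewhere) at a −log10 q of at least 5 and 10, and 93.1% (62.0% elsewhere) at a fold of at least 5. The TET1 share of CTCF and the MBD3 share at CTCF kept their side of the other chromosomes in 7 of 7 alternatives, MBD3 and TET2 shares of CTCF in 5 and 4 of 7. Kept CTCF regions numbered 2 with a 50% overlap, 1 at either −log10 q and 2 at a fold of at least 5. Kept MBD3 regions numbered 2 as single rows, and 0 at a fold of at least 5 or without the regions called with all 4 antibodies. Kept TET1 regions numbered 1 in each of 4 alternatives: either −log10 q, a fold of at least 5 and without those regions. TET2 regions with IAA came to 0.304, 0.0846 and 0.710 per Mb at a −log10 q of at least 5 and 10 and a fold of at least 5. At 10 they were below the other chromosomes (0.0904), with 5 regions, against 7 without IAA. At 5 there were 18 with IAA, against 15 without, and at a fold of at least 5 there were 42 with IAA, against 16 without. The cause of these changes was not tested. No paired analysis was possible because each list pools its 3 samples. Depth, unknown here, limits every count of regions and every share.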

Other observations

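The ends of the chromosome held a larger part of the TET2 regions of cells with IAA than of its length. Most of these TET2 regions still lay outside the ends. The matching share on the other chromosomes is not given here, so this is not shown to be particular to chromosome 19. The first and last 5 Mb, which are 16.9% of the length, held 40 of the 104 (38.5%, Wilson interval 29.7 to 48.1), 21 at the short-arm end and 19 at the long-arm end. These ends also held 5 of the 10 TET1 regions with IAA (50%, 23.7 to 76.3). The same ends held 10 of the 53 TET2 regions without IAA (18.9%, 10.6 to 31.4), 375 of the 1738 CTCF regions without IAA (21.6%) and 136 of the 731 TET1 regions without IAA (18.6%). Between 55 and 57 Mb there were 14 TET2 regions with IAA. No TET2 region with IAA lay in the 11999 kb from 18829954 to 30828898, which includes both middle segments.

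CTCF and TET1 were not alike at the ends. The first 5 Mb held 41.8 CTCF and 19.4 TET1 regions per Mb without IAA, and the last 5 Mb held 33.2 and 7.80 per Mb. MBD3 regions without IAA came to 2.80 per Mb in the first 5 Mb and 1.80 per Mb in the last, against 2.93 per Mb over the whole chromosome.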
